A study of Mus musculus with 6 samples.

Results

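The genes of PI3K, AKT and phosphoinositide signalling were followed in the dorsal root ganglia of mice in which Kif2a is targeted in sensory neurons. The 47 members were taken by gene symbol, as PI3K subunits, insulin receptor substrates, phosphoinositide kinases and phosphatases, AKT, mTOR, FOXO and GSK3, and all 47 were found among the 22087 genes of the table. All 47 also passed the filter on low counts, which kept 17759 genes. Dorsal root ganglia, which hold the cell bodies of the sensory neurons of trunk and limbs, were taken at 3 months of age, and their poly(A) RNA was sequenced. The control group of 3 libraries has the genotype Kif2a fl/fl, and the conditional knockout group (cKO) of 3 libraries has Kif2a fl/fl with Avil Cre, so both groups carry the loxP-flanked alleles and only the cKO carries Cre. Avil is the advillin gene of sensory neurons, so the glia, vessel and immune cells of the ganglion keep Kif2a by design. Nothing in the labels ties a library to an animal of its own, so p-values cover only the spread among the libraries, and that spread may be technical.

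In this pathway receptors for insulin and insulin-like growth factor act through adaptor proteins on PI3K, which phosphorylates inositol lipids of the plasma membrane. The lipid product recruits PDK1 and AKT, and AKT phosphorylates GSK3, the FOXO transcription factors and the TSC complex, which holds back the growth kinase mTOR. Other lipid kinases and phosphatases make and remove the inositol lipids, and in sensory neurons these lipids also set the activity of ion channels. A lipid kinase of the PIP5K type has been described as binding the KIF2A protein and promoting its depolymerisation of microtubules in neurons.

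Depth and identity of the libraries were as follows. The libraries held 21683083 to 31626625 counts, and the members had from 64 counts (Irs1) to 7080 counts (Rheb) in a library. Levels are given as CPM, counts divided by the TMM-scaled library total and put on a common scale. Kif2a had 86.4, 80.4 and 90.0 CPM in the control libraries and 69.8, 66.5 and 67.4 CPM in the cKO libraries, 79.3% of control, without passing the test over all genes (edgeR adjusted p 1.0). Avil itself had 562, 593 and 592 CPM in the control libraries and 239, 365 and 256 CPM in the cKO libraries, 49.2% of control (edgeR adjusted p 0.444). Only the cKO carries Avil Cre, so for Avil an effect of Cre and one of Kif2a loss cannot be told apart. A list of 12 sensory neuron markers summed to 12400 to 14400 CPM in control and to 10800 to 15100 CPM in the cKO. Of these markers 9 were lower in the cKO, Avil among them (75.0%, against 48.4% of all genes). The median over the 12 was -0.189 (log2). Pou4f1, a transcription factor of sensory neurons, was at 73.1% of control (edgeR adjusted p 1.0). Avil and Pou4f1 were the 2 markers without overlap, both lower, where 4.7% of all genes were lower without overlap. The 3 higher markers were Calca, Nefl and Scn9a, at 115%, 102% and 102% of control. Marker lists differed both between and within the groups. Of 10 interferon-stimulated genes 10 were higher in the cKO (median log2 fold change 0.654), where 9166 of 17759 genes were. Of these 10, 3 were higher without overlap, where 3.96% of all genes were. At an unadjusted edgeR p under 0.05 there were 5, where 1.58% of all genes were higher. Of 5 tested spinal cord and brain markers 5 were lower (median -0.899), where 48.4% of all genes were. At an unadjusted edgeR p under 0.05 there were 4, where 3.09% of all genes were lower. The part of either in the members' levels was not tested. Each list was scored as the mean log2 deviation of its genes from their mean over the 6 libraries. The fibroblast score was 1.05, -0.90 and -0.37 in cKO replicates 1 to 3 and between -0.09 and 0.17 in control. The macrophage score was 0.63, -0.77 and 0.03 in the cKO, and the Schwann cell score was 0.61, -0.50 and -0.32. Spinal cord and brain markers scored 1.05 in control replicate 2 and between -0.64 and 0.08 in the other libraries. The interferon score was 0.69, -0.28 and 0.31 in cKO replicates 1 to 3 and -0.32, -0.28 and -0.13 in control. Replicate 2 of the cKO thus lay within the control range. In bulk tissue, fewer cells of a type and less RNA per cell cannot be told apart.

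No member passed the test between cKO and control. With edgeR's quasi-likelihood test and Benjamini-Hochberg adjustment over all 17759 genes, 0 of 47 members passed at an adjusted p under 0.05, where 4 genes of the whole table (0.0225%) passed. DESeq2 and limma also called 0 members, where they called 24 and 4 genes of the table. At an unadjusted edgeR p under 0.05 there were 7 members, 14.9% of the 47, against 4.67% of all genes. That count depended on which libraries entered, being 1 without control replicate 3 (2.24% of all genes), 2 without control replicate 2 (2.94%), 2 without cKO replicate 3 (2.54%) and 14 without cKO replicate 2 (11.5%). It was 4 with the GC trend removed (4.22% of all genes). The 5 lower ones were Gsk3a, Foxo3, Irs2, Pip4k2c and Pip5k1c, and the 2 higher ones were Rps6kb2 and Pik3c2a. The control and cKO libraries did not overlap for 11 members (23.4%), against 8.66% of all genes. Of these 7 were lower in the cKO, where 4.7% of all genes were, and 4 were higher, where 3.96% of all genes were. With fewer libraries more genes are free of overlap: there were 17 such members without control replicate 1 (19.3% of all genes), 17 without cKO replicate 1 (23.5%) and 23 without cKO replicate 2 (28.4%). Of the 42 members with a mean of at least 10 CPM, 7 (16.7%) had an unadjusted p under 0.05, against 4.95% of all genes at that level, and 10 (23.8%) did not overlap, against 7.91%. Over the 47, 31 had a log2 fold change under 0 (66.0%), against 48.4% of all genes, with a median of -0.064 against 0.006. The authors' deposited table marks none of the members as changed (0 of 47, against 145 genes in all), and of the members only Gsk3a has in the authors' deposited table an fdrtool rate under 0.05, at 0.0363, as 1.18% of its genes do.

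**Figure D1:**
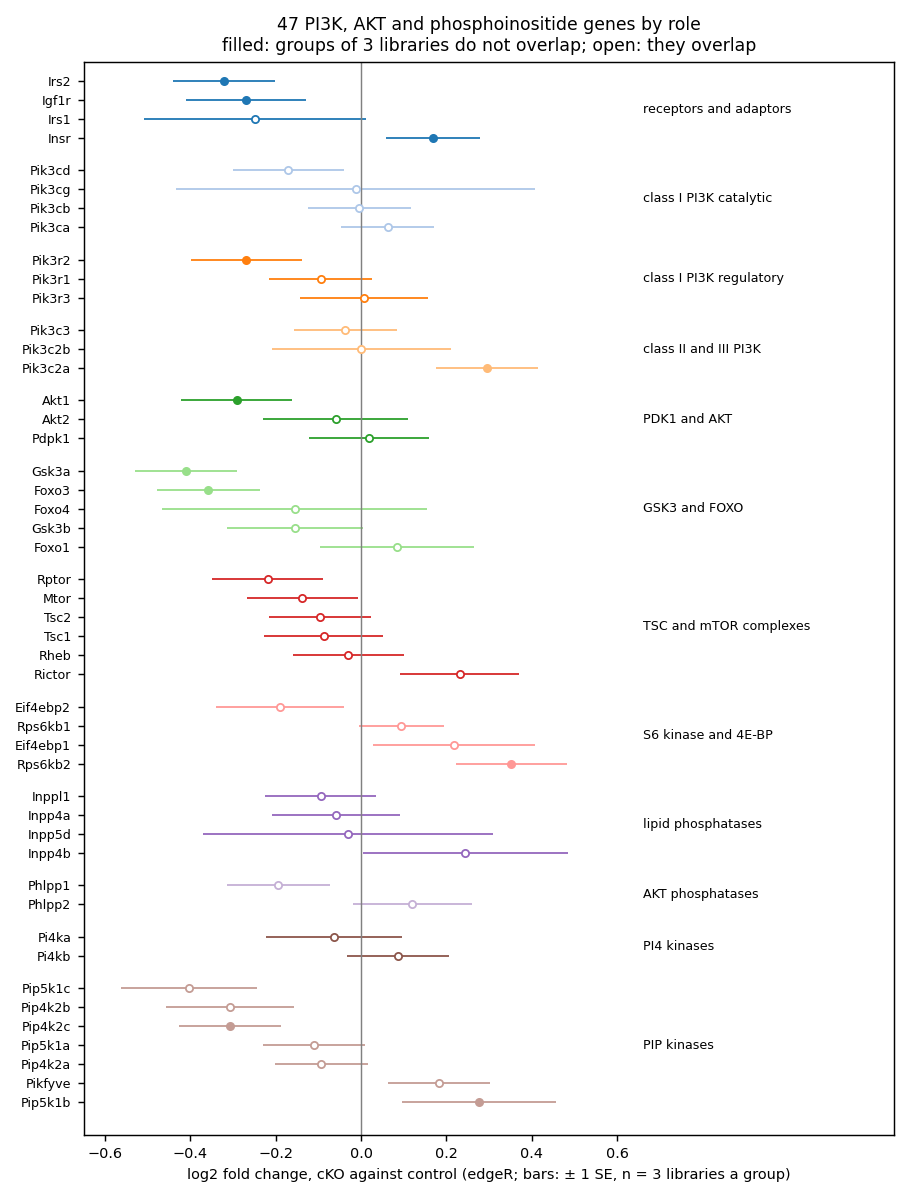
Log2 fold change of cKO against control for the 47 members, grouped by role, with bars of 1 standard error (n = 3 libraries a group). Filled points mark the 11 members whose control and cKO libraries do not overlap, from Gsk3a at -0.41 to Rps6kb2 at 0.35, and no member passed over all genes.

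Receptors and adaptors at the head of the pathway differed in direction. Igf1r, the receptor for insulin-like growth factor, was at 34.6, 48.1 and 38.9 CPM in control and at 33.1, 34.2 and 33.6 CPM in the cKO. Each cKO library was below each control library, and the log2 fold change was -0.27 ± 0.14 (SE), or -0.12 without control replicate 2, the library with the highest Igf1r and the highest spinal cord and brain score. Insr, the insulin receptor, lay the other way, at 25.2, 27.5 and 24.4 CPM in control and 29.7, 29.5 and 27.6 CPM in the cKO (log2 fold change 0.17 ± 0.11). The ratio of the receptors within a library does not depend on scaling. The log2 ratio of Insr to Igf1r counts was -0.65 ± 0.17 in control and -0.22 ± 0.06 in the cKO (SD, n = 3), with no overlap. An exact permutation test, two-sided, gave p = 0.1, the smallest possible with 3 libraries against 3, and 0.3 adjusted over the 12 pairs compared. Transcript GC content is 45.8% for Insr and 49.1% for Igf1r, and its part in the ratio was not tested. Irs2, an adaptor that links these receptors to PI3K, was at 32.1, 27.8 and 32.2 CPM in control and at 23.5, 27.2 and 23.1 CPM in the cKO, 80.0% of control. The cKO libraries all lay below control, with replicate 2 of each group close together, and the log2 fold change was -0.32 ± 0.12 (edgeR adjusted p 1.0). Irs1, the other adaptor, was low throughout, between 2.74 and 4.97 CPM, with groups that overlapped.

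The catalytic subunits of PI3K overlapped between the groups. Pik3ca, the widely expressed alpha subunit, averaged 91.2 ± 4.08 CPM in control and 95.2 ± 6.92 CPM in the cKO (SD, n = 3). Pik3cb, the beta subunit, was at 25.5, 22.3 and 25.0 CPM in control and 22.1, 27.0 and 23.6 CPM in the cKO. Pik3cd and Pik3cg encode the delta and gamma subunits, which are best known from leukocytes. Pik3cg ran from 3.02 CPM in cKO replicate 2 to 9.35 CPM in control replicate 2, the widest relative range among the 4 catalytic genes. The macrophage score was also lowest in cKO replicate 2 (-0.77), and the part of these cells in the Pik3cg level was not tested. Pik3cd was at 37.4, 41.9 and 41.8 CPM in control and 37.6, 39.5 and 30.5 CPM in the cKO.

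Among the regulatory subunits, which bind activated receptors and hold the catalytic subunit, Pik3r2 was lower in each cKO library than in each control library. It was at 38.2, 41.2 and 42.3 CPM in control and 36.2, 36.3 and 28.5 CPM in the cKO, a log2 fold change of -0.27 ± 0.13 that was -0.15 without cKO replicate 3. Pik3r1, which had the highest level per length of the 3 regulatory genes, was at 167 ± 18.0 and 156 ± 3.67 CPM (SD, n = 3), and Pik3r3 at 49.8 ± 7.36 and 50.0 ± 7.01 CPM. Pik3r3 shares 24.3% of its exon length with a predicted gene on the same strand, so its counts are uncertain.

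The PI3Ks of class II and III make inositol lipids for endocytosis and autophagy. Pik3c2a, a class II enzyme of endocytic membranes, was higher in each cKO library. It was at 41.0, 31.4 and 35.6 CPM in control and 42.6, 44.6 and 45.3 CPM in the cKO, 123% of control, with a log2 fold change of 0.30 ± 0.12 (edgeR adjusted p 1.0). Control replicate 1 and cKO replicate 1 lay next to each other, and the other libraries were further apart. Pik3c2b averaged 5.45 ± 0.840 CPM in control and 5.45 ± 0.800 CPM in the cKO, and Pik3c3, the class III enzyme of autophagy, at 97.5% of control.

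Akt1 had the highest level per length of the 47 in control, 32.9 ± 3.39 CPM per kilobase of annotated exon (SD, n = 3), followed by Pip4k2a at 28.7 ± 1.20 and Rheb at 27.0 ± 2.29. The lowest levels per length were those of Irs1 at 0.419 ± 0.109 and Inpp4b at 0.265 ± 0.0373 CPM per kilobase. Akt1 encodes the kinase that gives the pathway its name. It was at 119, 140 and 145 CPM in control and 115, 118 and 97.3 CPM in the cKO, with a narrow gap between control replicate 1 and cKO replicate 2. The log2 fold change was -0.29 ± 0.13, with an edgeR adjusted p of 1.0. Akt2, known above all for insulin action, ran from 34.5 to 52.7 CPM, and both ends were cKO libraries. Pdpk1, which encodes PDK1, the kinase that activates AKT, was at 126 ± 7.22 CPM in control and at 109, 153 and 119 CPM in the cKO.

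Targets of AKT held the member with the smallest p. Gsk3a encodes a GSK3 kinase that AKT switches off by phosphorylation (chromosome 7, 25228258 to 25237851, minus strand, GRCm38). It was at 35.2, 41.7 and 43.5 CPM in control and at 31.8, 30.4 and 28.4 CPM in the cKO. All cKO libraries were below all control libraries, with means of 40.1 ± 4.36 and 30.2 ± 1.71 CPM (SD, n = 3). The cKO mean was 75.2% of control. The log2 fold change was -0.41 ± 0.12 with an unadjusted edgeR p of 0.00773, an adjusted p of 0.977 and a DESeq2 adjusted p of 0.758. An antisense gene, 9130221H12Rik, covers 28.3% of the Gsk3a exon length and had 29 to 45 counts in a library; whether counting used strand is not given in the sources used here. Gsk3b, the paralog with the higher level per length (19.3 against 13.8 CPM per kilobase in control), was at 193, 184 and 191 CPM in control but at 144, 216 and 150 CPM in the cKO. There cKO replicate 2 was above control while the other cKO libraries were below it.

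Foxo3 encodes a transcription factor of stress and growth arrest that AKT keeps out of the nucleus (chromosome 10, 42181841 to 42276755, minus strand). It was at 59.8, 74.1 and 69.0 CPM in control and 54.2, 56.8 and 47.4 CPM in the cKO, 78.0% of control, with no overlap. The log2 fold change was -0.36 ± 0.12 (unadjusted edgeR p 0.0170, adjusted p 1.0). Foxo1 and Foxo4 behaved differently between the cKO libraries. Foxo4 was at 26.2, 10.9 and 13.2 CPM in cKO replicates 1 to 3, against 17.5, 17.3 and 21.0 CPM in control. Foxo1 was at 26.9, 17.1 and 18.1 CPM in the cKO and at 19.5 ± 0.899 CPM in control (SD, n = 3). Replicate 1 of the cKO was highest for both, and its fibroblast, Schwann cell and macrophage scores were the highest too; their part in these levels was not tested.

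Promoters are shown for 3 members that were lower and 1 that was higher in every cKO library, so that the stretches upstream of genes on either side can be compared. The sequences are from RefSeq on GRCm38.p6, 300 bases around the start that RefSeq gives, on the strand of the gene; RefSeq and GENCODE starts can differ, and the Irs2 window lies upstream of the GENCODE gene. Capitals mark the GC box GGGCGG and the E-box CACGTG on either strand. The windows are chr7:25237802-25238101 for Gsk3a, chr10:42276646-42276945 for Foxo3, chr8:11008880-11009179 for Irs2 and chr7:116443409-116443708 for Pik3c2a, all on the minus strand.
Gsk3a: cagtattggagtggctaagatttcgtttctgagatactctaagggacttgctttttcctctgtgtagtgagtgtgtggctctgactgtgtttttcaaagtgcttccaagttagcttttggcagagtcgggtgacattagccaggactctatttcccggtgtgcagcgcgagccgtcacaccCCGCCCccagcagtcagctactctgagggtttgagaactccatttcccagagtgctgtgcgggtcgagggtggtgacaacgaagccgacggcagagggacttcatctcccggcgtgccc
Foxo3: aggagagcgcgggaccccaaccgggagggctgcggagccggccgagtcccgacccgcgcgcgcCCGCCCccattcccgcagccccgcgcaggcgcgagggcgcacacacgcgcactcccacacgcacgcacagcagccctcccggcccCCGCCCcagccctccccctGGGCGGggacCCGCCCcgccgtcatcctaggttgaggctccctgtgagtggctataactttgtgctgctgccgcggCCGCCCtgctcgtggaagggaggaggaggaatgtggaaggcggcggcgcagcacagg
Irs2: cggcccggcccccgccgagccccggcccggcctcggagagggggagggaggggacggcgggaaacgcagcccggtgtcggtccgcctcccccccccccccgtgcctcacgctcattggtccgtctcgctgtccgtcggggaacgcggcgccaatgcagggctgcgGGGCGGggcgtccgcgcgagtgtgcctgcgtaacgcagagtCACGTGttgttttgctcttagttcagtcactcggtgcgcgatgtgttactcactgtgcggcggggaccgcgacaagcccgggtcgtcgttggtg
Pik3c2a: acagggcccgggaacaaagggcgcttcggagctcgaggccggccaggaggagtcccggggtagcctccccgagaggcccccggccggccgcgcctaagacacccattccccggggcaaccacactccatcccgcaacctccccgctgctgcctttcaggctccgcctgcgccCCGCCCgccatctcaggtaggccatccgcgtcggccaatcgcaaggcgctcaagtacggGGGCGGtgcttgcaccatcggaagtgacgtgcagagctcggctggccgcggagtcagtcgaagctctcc

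The GC box stood 1 time in the Gsk3a window, 5 times in Foxo3, 1 time in Irs2 and 2 times in Pik3c2a, so members on either side carried it. The Irs2 window also held 1 E-box. The FOXO motif GTAAACA and the cAMP response element TGACGTCA were searched on both strands and had no match in these 4 windows. Akt1, also lower in every cKO library, has 2 windows that are not printed. Its window 1 held 1 FOXO motif and 0 GC boxes, and its window 2 held 0 FOXO motifs and 5 GC boxes. Among the members 40 of 47 matched the promoter table, with 55 windows; Pik3c3, Foxo4, Insr, Rps6kb2, Eif4ebp1, Pip4k2b and Pip5k1b had no entry. A GC box was in 67.3% of the member windows and in 35.7% of all 32851 windows, whose median GC contents were 63.0% and 52.7%. The FOXO motif was in 5.45% against 3.65%, the cAMP response element in 3.64% against 1.79% and the E-box in 9.09% against 7.15%. A match of letters is not a measured binding site.

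**Figure D2:**
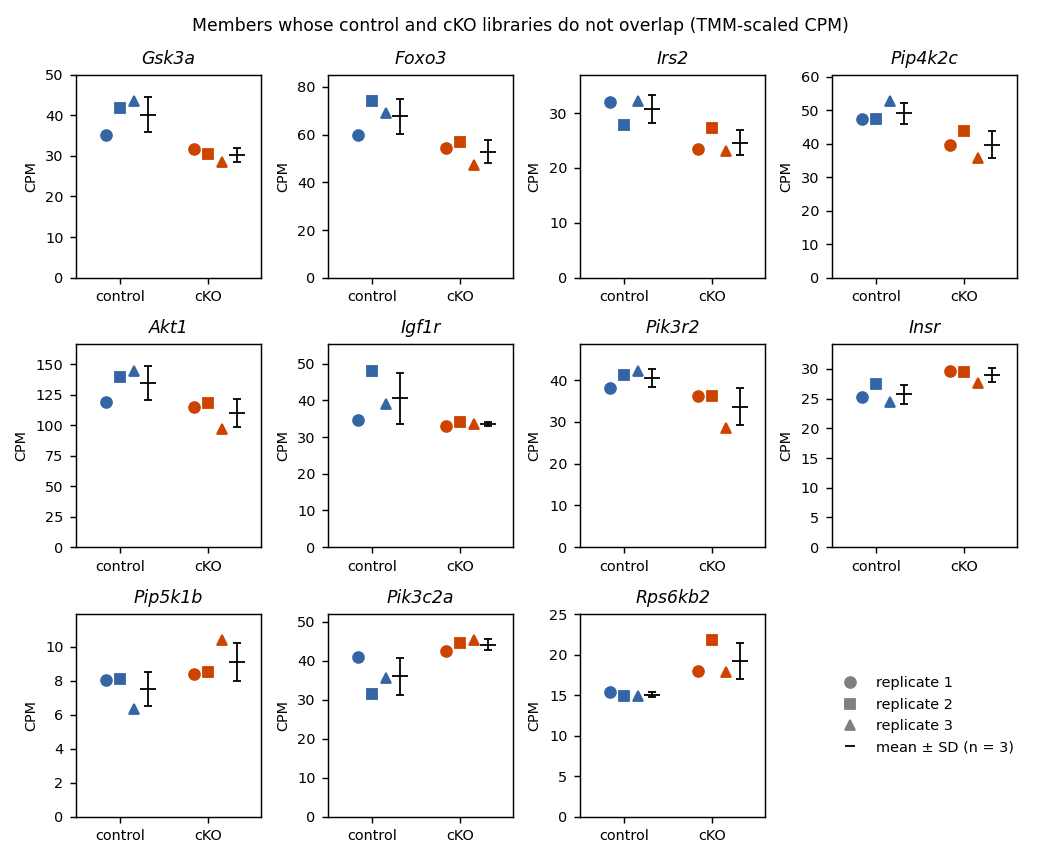
Level in each library, in TMM-scaled CPM on axes that start at 0, for the 11 members whose groups do not overlap, with the mean ± SD of 3 libraries beside the points. Insr, Pip5k1b, Irs2, Akt1 and Igf1r have narrow gaps between the groups, and Gsk3a is at 35.2 to 43.5 CPM in control and 28.4 to 31.8 CPM in the cKO.

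Of the 6 TSC and mTOR genes 5 were lower in the cKO (83.3%, against 48.4% of all genes), at a median of -0.092 (log2), and all 6 had groups that overlapped. Mtor, the kinase of both complexes, averaged 64.1 ± 4.61 CPM in control and 58.3 ± 9.19 CPM in the cKO (SD, n = 3). Rptor, the scaffold of the growth-promoting complex, was at 30.2, 30.2 and 27.6 CPM in control and 25.0, 28.4 and 22.0 CPM in the cKO. Rictor, the scaffold of the complex that phosphorylates AKT, was at 61.5, 50.3 and 46.6 CPM in control and 53.6, 70.8 and 61.4 CPM in the cKO. Each scaffold overlapped by itself, whereas the log2 ratio of Rptor to Rictor counts within a library was -0.84 ± 0.16 in control and -1.30 ± 0.19 in the cKO (SD, n = 3) and did not. The difference was -0.46, with an exact two-sided permutation p of 0.1 and 0.3 adjusted over 12 pairs. The transcripts differ in GC content, 55.1% for Rptor and 41.6% for Rictor, and the part of this in the ratio was not tested. Tsc1 and Tsc2, the brake on mTOR, were at 94.0% and 93.5% of control, and Rheb, the switch between them and mTOR, at 97.9%.

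Downstream of mTOR, Rps6kb2 had the largest positive fold change of the 47. It encodes a kinase of ribosomal protein S6 (chromosome 19, 4153991 to 4163354, minus strand). It was at 15.4, 14.9 and 14.9 CPM in control and 18.0, 21.8 and 17.9 CPM in the cKO. The control libraries were close together and all cKO libraries above them, at 128% of control, a log2 fold change of 0.35 ± 0.13 (unadjusted edgeR p 0.0248, adjusted p 1.0). The lymphocyte gene Ptprcap covers 23.7% of the Rps6kb2 exon length on the opposite strand. Ptprcap was not among the 22087 genes with counts, so its level is unknown here. Rps6kb2 was highest in cKO replicate 2, where the lymphocyte score was lowest (-0.73, against 0.77 and 0.43 in cKO replicates 1 and 3 and -0.42 to 0.30 in control). The part of Ptprcap reads in the Rps6kb2 counts was not tested. Its paralog Rps6kb1 was at 59.1 ± 1.57 and 63.1 ± 4.76 CPM. The log2 ratio of Rps6kb1 to Rps6kb2 counts was 1.97 ± 0.03 in control and 1.72 ± 0.09 in the cKO (SD, n = 3), with an exact permutation p of 0.1 and 0.3 adjusted over the pairs. Here GC content is 41.7% for Rps6kb1 and 56.6% for Rps6kb2, and its part in the ratio was not tested. Eif4ebp1 and Eif4ebp2, repressors of cap-dependent translation that mTOR inactivates, were at 116% and 87.6% of control with groups that overlapped.

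The kinases that phosphorylate singly phosphorylated inositol lipids gave 2 of the members with an unadjusted p under 0.05. Pip5k1c makes the membrane lipid that phospholipase C cleaves, and in mouse sensory neurons it is known as a main source of that lipid. It was at 83.3, 89.2 and 94.7 CPM in control and at 60.4, 84.4 and 57.3 CPM in the cKO. Replicate 2 of the cKO lay within the control range while the others were well below it, and the log2 fold change was -0.40 ± 0.16 (unadjusted edgeR p 0.0297, adjusted p 1.0). Without cKO replicate 2 its adjusted p was 0.0889, the smallest of any member in any fit. Sensory neuron markers scored 0.15 in cKO replicate 2, against -0.31 and -0.15 in cKO replicates 1 and 3. The part of these cells in the Pip5k1c level was not tested. Pip4k2c, a lipid kinase of intracellular membranes, was at 47.4, 47.2 and 52.7 CPM in control and 39.5, 43.8 and 35.8 CPM in the cKO, 80.8% of control with no overlap (log2 fold change -0.31 ± 0.12). Pip4k2b was also at 80.8% of control but overlapped, since cKO replicate 2 was at 56.7 CPM and control replicate 1 at 53.9 CPM. Pip5k1b, another kinase of that type, was at 8.07, 8.12 and 6.37 CPM in control and at 8.39, 8.52 and 10.4 CPM in the cKO, higher in each cKO library but close to control in replicates 1 and 2. Its log2 fold change was 0.28 ± 0.18, or 0.18 without cKO replicate 3 or control replicate 3. Pip5k1a and Pip4k2a were at 92.6% and 93.8% of control, and Pikfyve, which makes a lipid of endosomes and lysosomes, at 114%, all with overlap. Pi4ka and Pi4kb, which start the pathway to these lipids, were at 95.6% and 106% of control.

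Other members share exon length with another annotated gene, so some of their counts are uncertain. The overlap was 30.9% for Irs1, 18.8% for Inppl1, 12.3% for Pik3c2a, 10.5% for the largest of those of Pi4kb, 7.78% for Foxo1, 7.2% for Tsc2 and 4.47% for Pip4k2c, and smaller for the others.

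Phosphatases that end the signal had overlapping groups throughout. Inpp4a, which removes a phosphate from PI3K lipids, was at 80.3 ± 6.89 and 77.1 ± 14.5 CPM, and Inpp4b at 3.47 ± 0.488 and 4.12 ± 0.864 CPM (SD, n = 3). Inpp5d, the SHIP1 phosphatase of blood cells, ran from 5.50 CPM in cKO replicate 2 to 14.9 CPM in cKO replicate 1, in the order of the macrophage score within the cKO; the part of these cells in its level was not tested. Its widely expressed relative Inppl1 was at 17.8 ± 0.911 and 16.7 ± 1.58 CPM. Phlpp1 and Phlpp2 remove phosphate from AKT. Phlpp1 was at 87.4% of control and Phlpp2 at 109%, and their log2 ratio within a library was -0.60 ± 0.16 in control and -0.91 ± 0.10 in the cKO (SD, n = 3) without overlap (exact permutation p 0.1, 0.3 adjusted over the pairs). Of the 12 pairs compared, the other 8 overlapped.

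The cKO libraries differed from each other in these genes. Replicate 2 was the highest cKO library for 30 of 47 members (63.8%), where it was for 38.3% of all genes, and replicate 3 was the lowest for 23 (48.9%), where it was for 27.7% of all genes. Replicate 2 was above all 5 other libraries for 15 members (31.9%, against 23.1% of all genes), among them Gsk3b, Pi4ka, Pdpk1, Rictor, Tsc1 and Inpp4a. Replicate 1 was above all 5 others for 8 members (17.0%, below the 23.8% of all genes), which were Akt2, Foxo1, Foxo4, Insr, Eif4ebp1, Inpp4b, Inpp5d and Inppl1. Sensory neuron markers scored -0.31, 0.15 and -0.15 in cKO replicates 1 to 3, an order that 14 of 47 members shared (29.8%, against 23.5% of all genes), Gsk3b and Pdpk1 among them and Pi4ka not. Their part in the levels of these members was not tested.

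**Figure D3:**
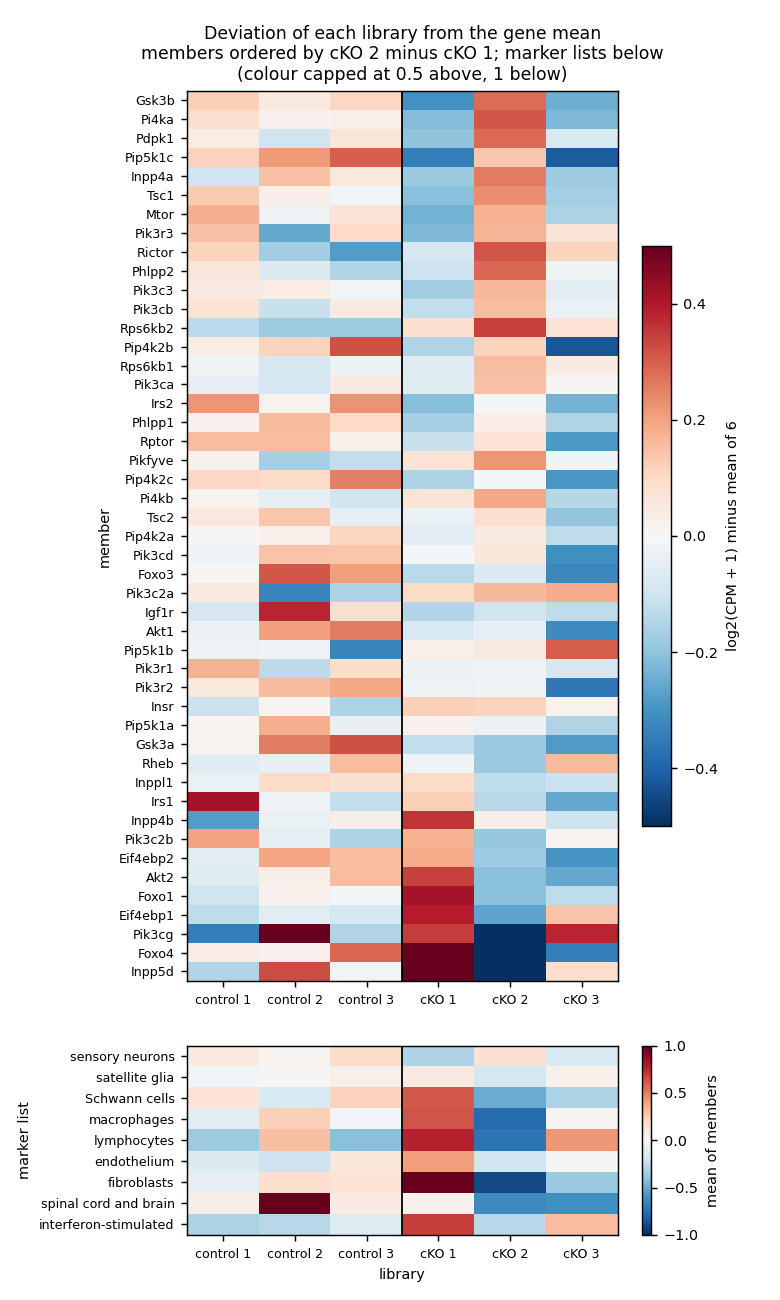
Deviation of each library from a gene's mean over the 6 libraries, in log2(CPM + 1), for the 47 members (top) and as list means for the marker lists (bottom), with members ordered by cKO replicate 2 minus cKO replicate 1. Members at the top of the order, such as Gsk3b and Pi4ka, are high in cKO replicate 2, and those at the bottom, such as Foxo4 and Inpp5d, are high in cKO replicate 1, where fibroblast markers score 1.05.

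The fold changes of the members went with the GC content of their transcripts. Of 14 members with a GC content of 54% or more, 12 were lower in the cKO, where 59.9% of all genes in that range were lower. Of 16 members from 48% to under 54%, 12 were lower, where 51.1% of all genes were. Of 17 members under 48%, 7 were lower, where 38.4% of all genes were. Spearman's correlation of GC content with log2 fold change was -0.643 across the 47 members and -0.222 across 17432 genes. This is a description across genes that share the same 6 libraries. The sets were not matched by level: 42 of 47 members averaged at least 10 CPM, as did 10275 of the 17759 genes tested. Across the members the correlation of GC content with the library's own deviation was 0.0717, 0.589 and 0.457 in control replicates 1 to 3 and -0.0293, -0.333 and -0.655 in cKO replicates 1 to 3. Across all genes it was -0.0163, 0.273 and 0.101 in control and -0.0367, 0.0179 and -0.314 in the cKO. With a GC trend removed from each library, Gsk3a was at -0.30, Foxo3 at -0.27 and Rps6kb2 at 0.41. Akt1 went from -0.29 to -0.18 and Pik3r2 from -0.27 to -0.13, while 34 of 47 members were lower with a median of -0.056.

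**Figure D4:**
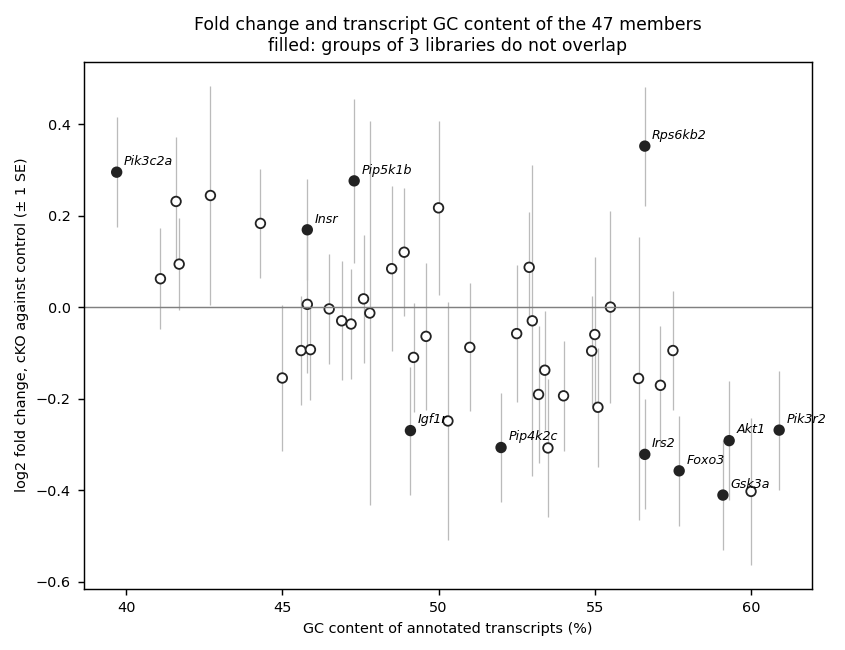
Log2 fold change of cKO against control (bars of 1 standard error, n = 3 libraries a group) over the GC content of annotated transcripts for the 47 members. Members rich in GC, such as Gsk3a (59.1%) and Foxo3 (57.7%), lie below 0 and Pik3c2a (39.7%) lies above it, while Rps6kb2 (56.6%) stands above 0 at a high GC content.

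Other genes of the pathway were read from 8 lists of 142 genes outside the members, of which 139 were tested. In edgeR 0 of them passed in either direction, and DESeq2 and limma called 0 and 0 of them. Without control replicate 2 and cKO replicate 1, 1 gene of these lists passed in edgeR, Igfbp5, named here after its value was seen. At an unadjusted edgeR p under 0.05, 7 were lower and 0 higher, where 3.09% and 1.58% of all genes were. Of the 139, 81 were lower (58.3%, against 48.4% of all genes), with a median of -0.035 against 0.006. Without overlap 12 were lower and 4 higher, where 4.7% and 3.96% of all genes were. The list of other phosphoinositide kinases and lipid transfer proteins held 4 of the 7, with 14 of 21 genes lower. Dgki, a kinase of diacylglycerol, was at 58.8, 57.6 and 52.0 CPM in control and 37.0, 49.9 and 30.0 CPM in the cKO, lower in each cKO library (log2 fold change -0.53 ± 0.18, edgeR adjusted p 1.0). The lipid transfer proteins Pitpnm1 and Pitpnm2 were also lower in each cKO library, at -0.33 ± 0.12 and -0.41 ± 0.15.

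Among 20 phospholipase C and IP3 receptor genes, 11 were lower. Plcb3, a phospholipase C downstream of G protein-coupled receptors in nociceptors, was at 278, 369 and 359 CPM in control and at 194, 282 and 195 CPM in the cKO, a log2 fold change of -0.59 ± 0.18 (edgeR adjusted p 1.0, DESeq2 adjusted p 0.510). Control replicate 1 and cKO replicate 2 overlapped. Itpkb, which phosphorylates the soluble messenger IP3, was at -0.41 ± 0.14 with no overlap. In the list of insulin and IGF ligands, binding proteins and adaptors, 9 of 17 genes were lower, and the adaptor Sh2b1 was at 36.5 ± 3.94 CPM in control and at 31.2, 29.4 and 28.3 CPM in the cKO (log2 fold change -0.30 ± 0.12). Grb10 of that list had a log2 fold change of 0.19 ± 0.12, with overlap. Igfbp7, an IGF-binding protein of that list, was at 166, 74.2 and 90.0 CPM in the cKO and at 85.1 ± 7.70 CPM in control, high in cKO replicate 1 alone.

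Transcripts that FOXO factors are known to drive had 6 of 11 members lower, with a median of -0.039. Txnip was at 141, 69.1 and 97.9 CPM in the cKO and at 79.5 ± 3.01 CPM in control, Cdkn1b was at -0.25 ± 0.16 and Bcl6 at -0.19 ± 0.14 on the log2 fold scale, all with overlap. For mTOR complex partners 8 of 12 were lower, and the mTOR inhibitor Deptor was at 153, 148 and 180 CPM in control and 100, 162 and 103 CPM in the cKO. Sgk1 of that list was at 0.26 ± 0.15 with overlap, and Prr5 at -0.24 ± 0.16 without overlap. Lysosomal amino acid sensing had 11 of 23 lower, with Fnip1 higher in each cKO library (0.27 ± 0.12). Other phosphoinositide phosphatases had 16 of 26 lower, with Vac14 at -0.26 ± 0.13 and Synj2 at -0.33 ± 0.17. Mtmr12 of the same list was at 0.16 ± 0.11 and higher in each cKO library. Among other PI3K subunits and partners 6 of 9 were lower. Pik3ip1, an inhibitor of PI3K, was at 89.2, 92.9 and 91.5 CPM in control and at 78.4, 77.0 and 79.7 CPM in the cKO, with no overlap and little spread in either group (log2 fold change -0.22 ± 0.10, unadjusted edgeR p 0.0504).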

How the data were processed

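Poly(A) RNA of dorsal root ganglia was sequenced in 6 libraries, grouped by the genotype in the sample titles. Per the submitters' processing notes, reads were processed with cutadapt, STAR and DESeq2 on mm10; no source used here gives versions, the counting program or strand use. The deposited table gives raw counts per gene symbol, and no gene in it has under 6 counts over the libraries. Per the file headers it also holds size-factor normalized signal, regularized log2 values, log2 fold changes, p-values and an fdrtool rate, all made by the authors; only the marks and the fdrtool rates are printed here.

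The counts went into edgeR 4.0.16 under R 4.3.3, with filterByExpr (minimum count 10), TMM scaling, a robust quasi-likelihood F test on all genes without covariates, and Benjamini-Hochberg adjustment with a threshold of 0.05. The common biological coefficient of variation was 0.205. The script was tested on simulated data. Standard errors derive from the F statistic. Single values and ratios were compared by exact two-sided permutation tests. Scores use log2(CPM + 1). Lengths, GC content (98.2% of tested genes) and positions come from GENCODE M21 on GRCm38, matched by symbol; length is the union of annotated exons. Every member is named; from the other lists, up to 3 genes of smallest p at 1 CPM or more could be. The members and lists were chosen with earlier results of these data known, and the GC ranges and library examples after seeing values. Alternatives were DESeq2 1.42.0, limma-trend from limma 3.58.1, 2 scalings, 2 filters, a replicate block and each library left out, with a GC trend removal (lowess span 0.3) and the joint removal of 2 libraries added after seeing the data. No pair of libraries agreed within sampling noise.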

Additional observations from a re-analysis of the deposited data

How the results depend on the processing

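In all 15 alternative fits 0 members passed, and 31 of 47 members kept their direction in each. The number of members lower ranged from 28 to 34 and the median from -0.116 (without cKO replicate 2) to -0.013 (without cKO replicate 3). Genes called over the whole table were 4 in the reported fit, 24 with DESeq2, 0 to 13 with a library left out and 25 without control replicate 2 and cKO replicate 1. Members without overlap were 11, but 7 with library totals only (8.1% of all genes), 18 without those 2 libraries (32.6% of all genes), and 12 to 23 with a library left out, where 12.8% to 28.4% of all genes did not overlap, since fewer libraries overlap less often. Members with an unadjusted p under 0.05 were 7, but 4 with library totals only (3.93% of all genes), 3 with the replicate block (3.27%), 4 with the GC trend removed (4.22%), 3 without those 2 libraries (6.06%) and 1 to 14 with a library left out (2.24% to 11.5%). The same-numbered libraries did not deviate together (correlations -0.152, -0.247 and -0.13). With 3 libraries a group this cannot decide whether the numbers pair them, and the labels do not say. With the replicate number as a block 0 genes were called and the median was -0.09. Depth limits least-counted members most, such as Irs1 with 64 counts in its lowest library.

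The log2 fold changes of 16 members turned direction in at least 1 fit, and the cause was not tested. Not all were near 0 in the reported fit, where Foxo4 was at -0.16 and Phlpp2 at 0.12. Those of Pik3cg and Inpp5d were near 0 there but moved widely with 1 library left out. Pik3c2b was at -0.00035 with limma and -0.00936 without a filter, where Pik3r3 was at -0.000476. Pik3cb was at 0.00691 with DESeq2 size factors, 0.02 with library totals and 0.01 at a mean of at least 1 CPM, where Pik3cg was at 0.00327. With a GC trend removed, Pik3ca was at -0.00106, Pik3r3 at -0.02 and Pdpk1 at -5.51e-05. Without control replicate 2 and cKO replicate 1, Pik3cb was at 0.01, Pik3cg at 0.18, Pik3c2b at -0.12, Pik3c3 at 0.06, Foxo1 at -0.11, Inpp4a at 0.09 and Pi4ka at 0.03. With a library left out in turn, Akt2 ranged from -0.27 to 0.06, Foxo1 from -0.14 to 0.21, Foxo4 from -0.62 to 0.08, Inpp4a from -0.22 to 0.03, Inpp5d from -0.37 to 0.28, Pdpk1 from -0.13 to 0.13, Phlpp2 from -0.00474 to 0.21 and Pi4ka from -0.26 to 0.04. Pik3c2b ranged from -0.09 to 0.13, Pik3c3 from -0.13 to 0.05, Pik3cb from -0.08 to 0.07, Pik3cg from -0.22 to 0.37, Pik3r3 from -0.10 to 0.13, Rheb from -0.11 to 0.06 and Tsc1 from -0.24 to 0.00739.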
